A study of Homo sapiens with 38 samples.

Results

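The 43 genes described here encode splicing factors: 10 SR proteins, 2 TRA2 proteins, 3 CLK kinases, 15 heterogeneous nuclear ribonucleoproteins (hnRNPs, with PTBP1 counted among them), 5 factors that recognise the 3′ splice site or resemble those that do (U2AF1, U2AF2, SF1, RBM23 and RBM39), 6 subunits of the U1 and U2 small nuclear ribonucleoproteins (snRNPs) and 2 of the U5 snRNP. They were chosen by gene symbol, and each symbol matched 1 of the 18011 Ensembl gene identifiers of the count table. RNA was sequenced from 6 diffuse large B-cell lymphoma lines, OCILY1, PFEIFFER, SUDHL4, SUDHL6, TOLEDO and WSUDLCL2, which are established human cell lines. Cells had been kept for 14 days with pracinostat (5 lines), with vorinostat (5 lines) or in the 2 DMSO solvent groups named DMSOP (5 lines) and DMSOV (5 lines), or for 6 h with pracinostat (6 lines), vorinostat (5 lines) or DMSO (6 lines). Pracinostat and vorinostat are hydroxamic acids that block histone deacetylases, which strip acetyl marks from chromatin and from other proteins. DMSOP was read as the solvent control of pracinostat and DMSOV as that of vorinostat from the sample titles, which do not say so in words, and the labels used here give no dose for either drug. SUDHL6 entered only at 6 h, with pracinostat and DMSO. The titles of the 6 h solvent libraries say only DMSO. The column names of the deposited log2 CPM values give DMSOP for TOLEDO and PFEIFFER, and DMSOV for OCILY1, SUDHL4, SUDHL6 and WSUDLCL2. At 6 h some lines therefore set a drug against the solvent read as that of the other drug. Each line gave 1 library per group, and the lines served as replicates and as blocks in every main fit. Nothing in the labels says whether libraries of 1 line came from separate cultures. The p-values set each drug effect against the spread that remains once the level of each line is removed. That spread was taken from all groups fitted together, not from the compared groups alone.

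The 37 libraries held 3.19 to 8.92 M counts each (M, 1e6). A count of 3 corresponded to 0.336 to 0.941 CPM, the counts per 1e6 counts of a library. All 5 B-cell markers examined (CD79A, CD79B, MS4A1, PAX5 and CD22) were in the table, and their summed level lay between 2243 and 6626 CPM across the DMSO libraries. Values below are CPM scaled by TMM factors, and a log2 fold change is drug over its DMSO group with its standard error (SE). A gene is called where edgeR's quasi-likelihood test gave a Benjamini-Hochberg adjusted p under 0.05 over all genes tested. CPM is a share of each library, so these data do not show whether the amount of a transcript per cell moved with the total RNA per cell. Where 5 values follow each other they stand for OCILY1, PFEIFFER, SUDHL4, TOLEDO and WSUDLCL2, in that order.

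Splicing removes introns from pre-mRNA in a spliceosome that is built anew on each intron. The U1 snRNP, to which SNRNP70 belongs, pairs with the 5′ splice site, while SF1, U2AF2 and U2AF1 bind the branch point, the polypyrimidine tract and the terminal AG of the intron. The U2 snRNP, with its SF3A and SF3B proteins, then takes the branch point over. The U5 proteins PRPF8 and SNRNP200 sit at the centre of the later complexes, PRPF8 holding the catalytic RNA and SNRNP200 unwinding the U4 and U6 RNAs. SR proteins bind exons and mostly promote the use of nearby splice sites, hnRNPs coat nascent transcripts and often repress it. The balance of both sets decides many alternative exons. CLK kinases phosphorylate the arginine-serine domains of SR proteins. Many SR proteins and hnRNPs limit their own mRNA through alternative exons that carry premature stop codons.

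One member cannot be told apart from a second copy in the genome. U2AF1 (chr21:43092956-43107587, minus strand, hg38) shared 94.33% of its 50-base exon windows with U2AF1L5 (chr21:6484623-6499261, minus strand), and the 720 coding bases of the main isoform of both genes in the GENCODE 29 transcripts had 0 mismatches. Their first 60 coding bases, shown because reads from them cannot be assigned to either gene, are identical:
U2AF1: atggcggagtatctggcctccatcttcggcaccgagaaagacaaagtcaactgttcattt
U2AF1L5: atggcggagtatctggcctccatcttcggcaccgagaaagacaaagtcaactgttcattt
U2AF1 had 1 to 90 counts per library (median 25) and U2AF1L5 had 0 to 44 (median 0), against 375 to 3668 for U2AF2 (median 1147). U2AF1 is therefore listed with its values but is uncertain throughout. Among the others, SRSF1 shared 50.84% of its windows with the overlapping locus AC015813.2, which is not in the table, HNRNPA1 shared 22.81% and HNRNPA3 16.47% of theirs with other loci, and HNRNPL, SF3B4 and HNRNPK shared 11.23%, 9.76% and 8.49%. The counting is not stated to use strand, so 8 members that overlap a named gene on the opposite strand are uncertain too where that gene moved (SRSF2 with MFSD11, HNRNPA2B1 with CBX3, HNRNPU with COX20, HNRNPUL1 with TGFB1, SRSF9 with GATC, HNRNPAB with PHYKPL, SF3A1 with CCDC157 and RBM23 with PRMT5-AS1). The same holds for SRSF1, HNRNPA3, HNRNPD, HNRNPK, HNRNPM, U2AF2, SF3B2 and PRPF8, whose opposite-strand loci carry clone names only.

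The members that fell most at 6 h, SRSF6, U2AF2 and RBM23, are shown with the 250 bases upstream of their RefSeq start (GRCh38.p14), in order from 5′ to 3′ on the coding strand, since they moved together and differ in these bases. Capitals mark CCAAT, the GC-box letters GGGCGG, the ETS letters CCGGAAG and the NRF1 motif on either strand, and overlapping matches run together.
SRSF6 (chr20:43457646-43457895, plus strand): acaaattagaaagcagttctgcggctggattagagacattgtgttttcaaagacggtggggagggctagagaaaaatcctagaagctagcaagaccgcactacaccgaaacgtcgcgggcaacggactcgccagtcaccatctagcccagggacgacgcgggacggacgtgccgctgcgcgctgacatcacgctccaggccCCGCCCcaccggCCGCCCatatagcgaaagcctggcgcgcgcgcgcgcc
U2AF2 (chr19:55654785-55655034, plus strand): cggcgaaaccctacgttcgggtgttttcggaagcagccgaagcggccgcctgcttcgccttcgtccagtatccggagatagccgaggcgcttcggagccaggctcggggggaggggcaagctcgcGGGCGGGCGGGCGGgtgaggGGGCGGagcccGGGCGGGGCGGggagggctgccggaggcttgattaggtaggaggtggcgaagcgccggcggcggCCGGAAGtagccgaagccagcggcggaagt
RBM23 (chr14:22919150-22919399, minus strand): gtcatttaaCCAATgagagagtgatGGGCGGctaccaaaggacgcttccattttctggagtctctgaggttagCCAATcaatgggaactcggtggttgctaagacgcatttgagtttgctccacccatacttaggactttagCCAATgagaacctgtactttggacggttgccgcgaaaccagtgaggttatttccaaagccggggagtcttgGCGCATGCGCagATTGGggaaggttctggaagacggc
The SRSF6 window held 2 GC boxes and 61.6% G or C, the U2AF2 window 6 GC boxes and 1 ETS match at 72.4% G or C, and the RBM23 window 4 CCAAT boxes, 1 GC box and 1 NRF1 match at 50.8% G or C. None of these 4 motifs was held by all of them except the GC box. Of the 38 members with such a window, 39.5% held CCAAT, 68.4% the GC box, 23.7% the ETS letters, 15.8% the E-box CACGTG, 15.8% TATAAA and 2.6% the NRF1 motif, against 41.3%, 71.8%, 17.8%, 11.1%, 8.4% and 2.2% of the 11279 genes of the table with a window. Their median G or C content was 65.6%, against 64.4%. These are matches of letters, counted on both strands, and carry no statement on binding.

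Per kilobase of exon, HNRNPA1 stood highest over the 16 DMSO libraries at 458 ± 113 CPM per kb (mean ± SD), followed by HNRNPA2B1 at 193 ± 29.9, HNRNPAB at 173 ± 25.2, HNRNPK at 166 ± 24.3 and HNRNPF at 128 ± 19.1 CPM per kb. HNRNPA1 and HNRNPA2B1 encode the most abundant core hnRNPs. HNRNPA2B1 lay within an SD of HNRNPAB, and HNRNPAB within an SD of HNRNPK, while HNRNPA1 stood above HNRNPA2B1, and HNRNPK above HNRNPF, by more than that. SRSF1 at 119 ± 15.2 and SRSF2 at 116 ± 33.4 CPM per kb led the SR proteins, and the lowest members were RBM23 at 7.08 ± 1.43, CLK4 at 2.78 ± 0.643 and the uncertain U2AF1 at 0.412 ± 0.344 CPM per kb. These lengths are the union of annotated exons, and without division by length 3 of these 5 leading genes stayed in the first 5, with HNRNPC and HNRNPH1 in place of HNRNPAB and HNRNPF.

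**Figure D1:**
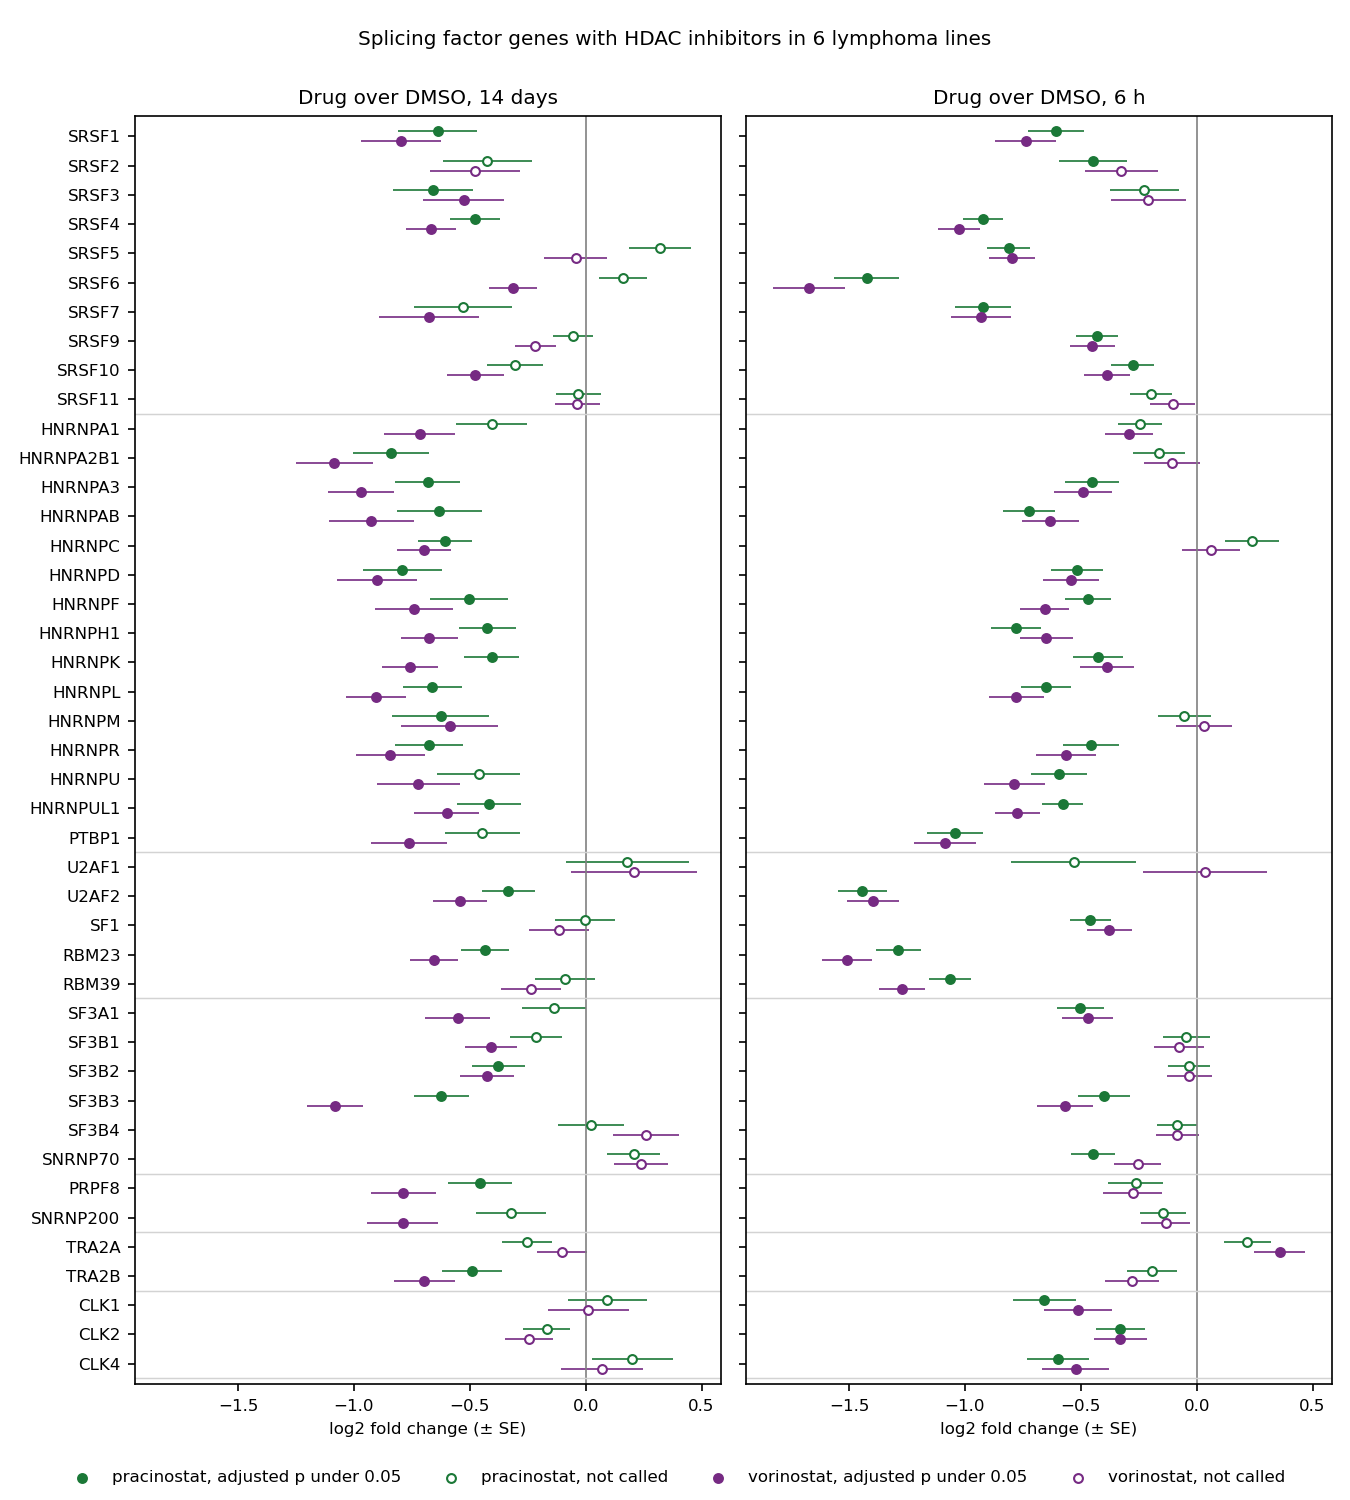
Log2 fold change of the 43 splicing factor genes, drug over its DMSO group, with the standard error as bars; 14 days on the left and 6 h on the right, pracinostat in green and vorinostat in purple, filled where edgeR's adjusted p was under 0.05. The genes run by role from SR proteins at the top to CLK kinases at the bottom; the lowest points are U2AF2, SRSF6 and RBM23 at 6 h, whereas HNRNPA2B1 and SF3B3 are lowest at 14 days.

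After 14 days of pracinostat, 21 of the 43 members were lower than in DMSOP and 0 were higher, against 22.6% of all 14037 genes tested that were called, 12.3% higher and 10.2% lower. The falls lay mostly among the hnRNPs, where 12 of 15 fell and the median log2 fold change was -0.61. Elsewhere 3 of 10 SR proteins fell (SRSF1, SRSF3 and SRSF4), 2 of 5 splice site factors (U2AF2 and RBM23), 2 of 6 U1 and U2 subunits (SF3B2 and SF3B3), PRPF8 of the U5 pair and TRA2B of the TRA2 pair. None of the 3 CLK kinases passed. The median over all members was -0.42, against 0.07 over all genes. Of the 0 higher, 1 member (SRSF5, 0.32 ± 0.14) had an unadjusted p under 0.05, and DESeq2's Wald test called it, while limma on the deposited log2 CPM called 0 higher. At an unadjusted p under 0.05, 29 members were lower.

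HNRNPA2B1 (chr7:26173057-26201529, minus strand), a core hnRNP that binds nascent transcripts, had 1348, 772, 741, 1229 and 837 CPM with pracinostat, against 2040, 1535, 1714, 1963 and 1476 CPM in DMSOP. All 5 treated libraries lay below all 5 DMSOP libraries, OCILY1 staying highest. Its log2 fold change was -0.84 ± 0.17 (SE; edgeR adjusted p = 0.00309). HNRNPD, which also binds AU-rich elements that mark mRNAs for decay, had 469.7, 233, 255, 602 and 234 CPM, against 665, 469, 633, 905 and 357 CPM in DMSOP. It was lower in each of the 5 lines, but TOLEDO with pracinostat stood above WSUDLCL2 and PFEIFFER without it. HNRNPD changed by -0.79 ± 0.17 (SE; edgeR adjusted p = 0.00515). HNRNPA3, a paralogue of HNRNPA2B1, had 688, 236, 428, 362 and 391 CPM with pracinostat, against 958, 559, 736, 536 and 529 CPM in DMSOP. The fall was present in every line, PFEIFFER being lowest with the drug, at -0.68 ± 0.14 (SE; edgeR adjusted p = 0.00379). HNRNPR had 218, 208, 183, 258 and 152 CPM with pracinostat, against 291, 367, 360.4, 412 and 228 CPM in DMSOP. Every line was lower, only the TOLEDO treated value reaching into the DMSOP range. HNRNPR changed by -0.68 ± 0.15 (SE; edgeR adjusted p = 0.00524). HNRNPL, which binds CA repeats and guides exon choice in lymphocyte genes such as CD45, had 210.5, 180.2, 172, 206 and 211 CPM with pracinostat, against 349, 287, 332, 332 and 273 CPM in DMSOP. These groups did not overlap. HNRNPL changed by -0.66 ± 0.13 (SE; edgeR adjusted p = 0.00292).

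SRSF3, the smallest classical SR protein and one that controls its own mRNA through a poison exon, had 384, 297, 250.5, 356 and 231 CPM after 14 days of pracinostat, against 436, 489, 486, 599 and 406 CPM in DMSOP. It too separated the groups fully, at -0.66 ± 0.17 (SE; edgeR adjusted p = 0.0139). HNRNPA1, which represses exon inclusion, had 1417, 1634, 1585, 2494 and 1783 CPM with pracinostat, against 1633, 2355, 2876, 2965 and 2209 CPM in DMSOP. Each line was lower but the groups overlapped, and -0.41 ± 0.15 (SE; edgeR adjusted p = 0.0639) did not pass. SF3B1, the U2 protein that clasps the branch point and is mutated in several blood cancers, had 441, 382, 342, 194 and 239 CPM with pracinostat, against 602, 423, 421, 234 and 241 CPM in DMSOP. Lines differed more from each other than treated from untreated cells, OCILY1 being highest and TOLEDO lowest in both groups, with -0.21 ± 0.11 (SE; edgeR adjusted p = 0.18). In 31 of the 43 members every line was lower with pracinostat, in 2 every line was higher (SRSF5 and CLK4, neither called), and in 6 the groups did not overlap (SRSF1, SRSF3, SRSF4, HNRNPA2B1, HNRNPC and HNRNPL). Over all 14037 genes tested, 17.2% were lower in every line and 3.05% did not overlap between the groups.

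The pracinostat count at 14 days moved with single lines. It was 8 without PFEIFFER, 10 without SUDHL4 and 13 without TOLEDO, and 13 of the 21 calls were lost without at least 1 line, with edgeR adjusted p-values of 0.0537 to 0.187 there. The count over all genes moved too. It was 591 lower of 13802 without PFEIFFER, 830 of 14705 without SUDHL4 and 1206 of 14644 without TOLEDO, against 1434 of 14037 with all lines. The calls of SRSF4, HNRNPA2B1, HNRNPA3, HNRNPC, HNRNPD, HNRNPL, HNRNPR and SF3B3 held without each line in turn. Without the cell line as a block no member was called, and of all 14037 genes only 6 were then called higher and 2 lower.

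After 14 days of vorinostat, 30 members were lower than in DMSOV and 0 were higher, against 37.6% of all genes called, 20.4% higher and 17.2% lower. All 15 hnRNPs fell, with a median log2 fold change of -0.76, together with 6 of 10 SR proteins (SRSF1, SRSF3, SRSF4, SRSF6, SRSF7 and SRSF10), 4 of 6 U1 and U2 subunits (SF3A1, SF3B1, SF3B2 and SF3B3), both U5 proteins, U2AF2, RBM23 and TRA2B. No CLK kinase passed. With library totals in place of TMM, 33 members were lower and the split over all genes was 2308 higher and 2931 lower, against 2864 and 2410. The median over all members was -0.60, against 0.12 over all genes. Of the 0 higher, none had an unadjusted p under 0.05, and DESeq2 and limma called 0 as well; 33 members were lower at an unadjusted p under 0.05.

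HNRNPA2B1 had 1426, 741, 482, 804 and 1029 CPM with vorinostat, against 1984, 1411, 1841, 2103 and 1984 CPM in DMSOV. SUDHL4 and TOLEDO fell furthest and OCILY1 least, its treated value just above that of PFEIFFER in DMSOV. Over lines it changed by -1.08 ± 0.17 (SE; edgeR adjusted p = 0.00021). SF3B3 (chr16:70523788-70577670, plus strand), a scaffold of the SF3B complex, had 315, 317, 146, 256 and 228 CPM with vorinostat, against 465, 591, 391, 701 and 545 CPM in DMSOV. The groups did not overlap, at -1.08 ± 0.12 (SE; edgeR adjusted p = 3.59e-05). HNRNPA3 had 619.9, 246, 329, 248 and 449.5 CPM with vorinostat, against 936, 542, 781, 585 and 784 CPM in DMSOV, with -0.97 ± 0.14 (SE; edgeR adjusted p = 0.00015). It was lower in all 5 lines and overlapped only through OCILY1. HNRNPAB had 270.1, 156, 144, 142 and 217 CPM with vorinostat, against 309, 354, 399, 352 and 373 CPM in DMSOV. SUDHL4, TOLEDO and PFEIFFER were the low ones, and no treated library reached the DMSOV range. HNRNPAB changed by -0.92 ± 0.18 (SE; edgeR adjusted p = 0.00121). HNRNPL had 241, 166, 115, 159 and 178 CPM with vorinostat, against 316, 295, 330.2, 336 and 334 CPM in DMSOV. It separated the groups as it did with pracinostat, at -0.90 ± 0.13 (SE; edgeR adjusted p = 0.000138).

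SNRNP200, the helicase of the U5 snRNP, had 306, 303, 229, 238 and 162 CPM with vorinostat, against 406, 422, 334, 604 and 435 CPM in DMSOV. All 5 treated values were below all DMSOV values, at -0.79 ± 0.15 (SE; edgeR adjusted p = 0.00105). HNRNPA1 had 1317, 1567, 1009, 1722 and 1402 CPM with vorinostat, against 1526, 2182, 3221, 2984 and 2132 CPM in DMSOV. The fall was widest in SUDHL4 and narrowest in OCILY1, at -0.71 ± 0.15 (SE; edgeR adjusted p = 0.00203). SF3B1 had 423, 403, 374, 144 and 203 CPM with vorinostat, against 567, 433, 451, 284 and 277 CPM in DMSOV. TOLEDO fell furthest and PFEIFFER least, at -0.41 ± 0.11 (SE; edgeR adjusted p = 0.0102), and this call was lost without TOLEDO (-0.30, edgeR adjusted p = 0.0597). SRSF3 had 396, 289.6, 189, 432 and 438 CPM with vorinostat, against 454, 470.4, 539.5, 604 and 450.3 CPM in DMSOV. SUDHL4 fell furthest and WSUDLCL2 least, at -0.53 ± 0.17 (SE; edgeR adjusted p = 0.0258) over lines, and the call was lost without PFEIFFER, SUDHL4 or TOLEDO. In 32 members every line was lower with vorinostat, in 1 every line was higher (SNRNP70, 0.24 ± 0.11, not called), and in 15 the groups did not overlap. Over all genes tested, 17.5% were lower in every line and 6.01% did not overlap.

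**Figure D2:**
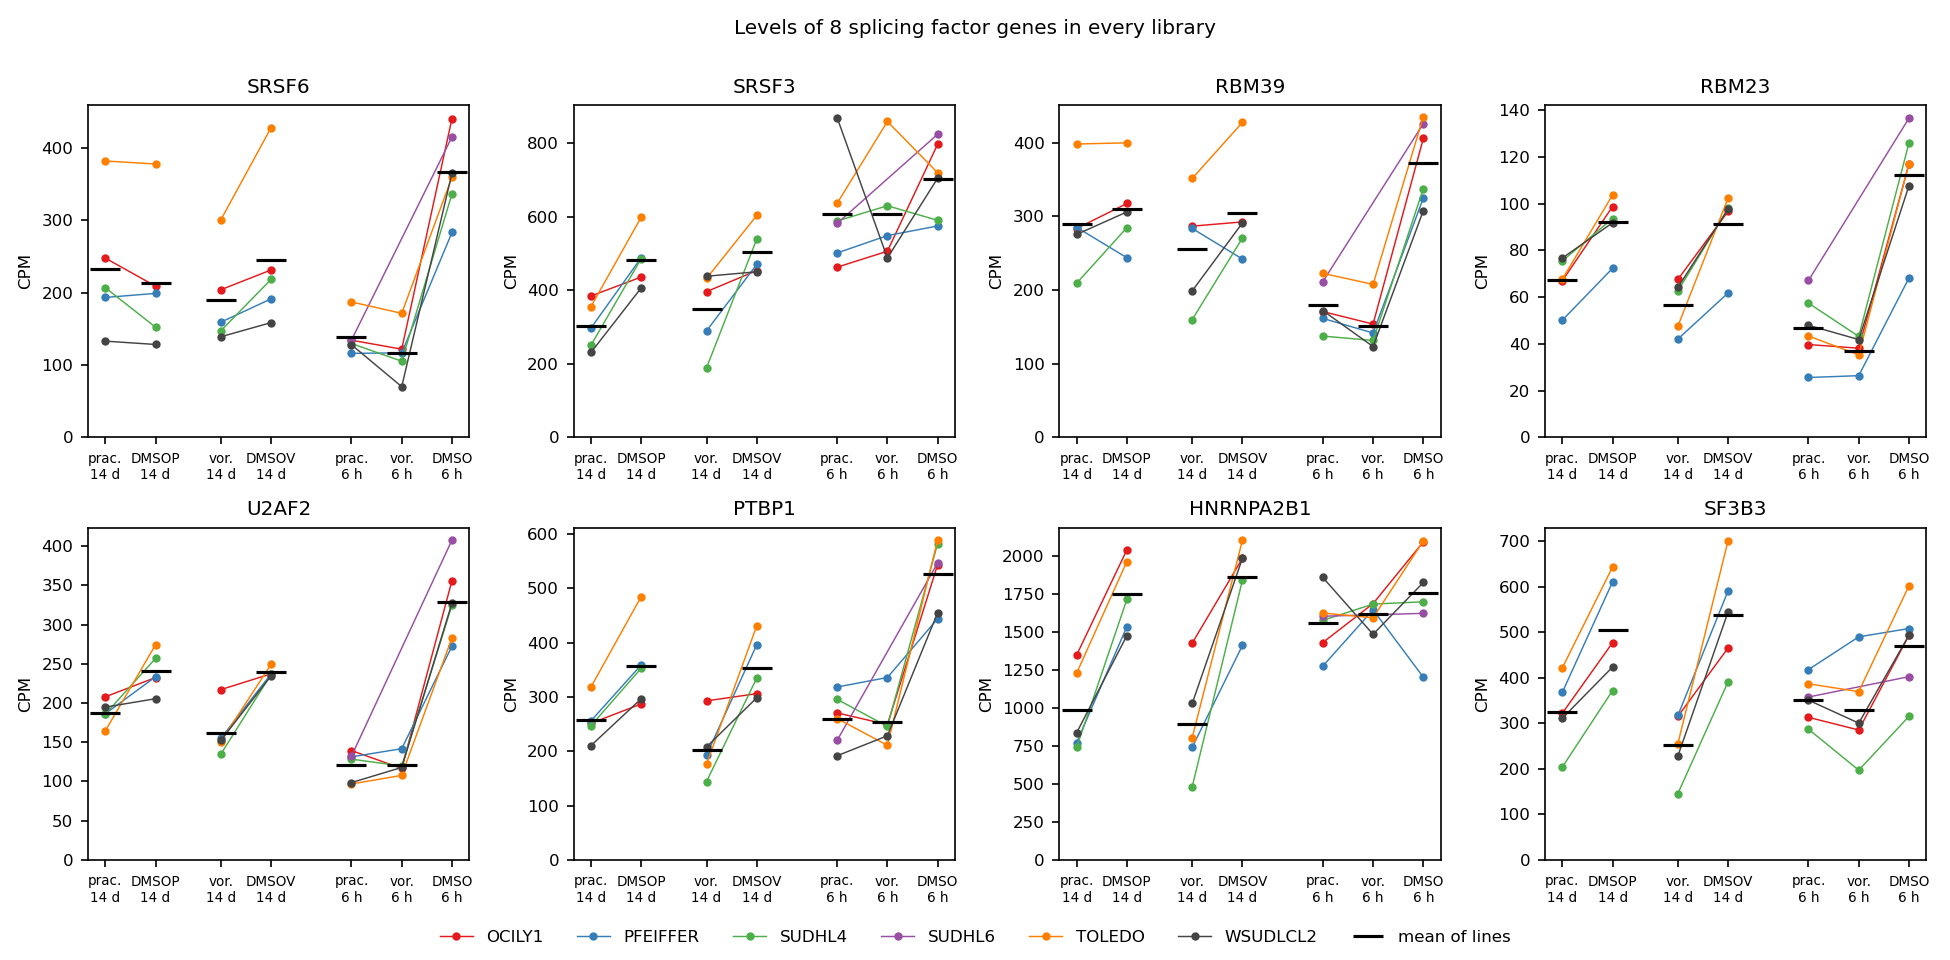
CPM of SRSF6, SRSF3, RBM39, RBM23, U2AF2, PTBP1, HNRNPA2B1 and SF3B3 in every library; each coloured point is 1 cell line, lines join libraries of the same cell line, and black bars are means over lines. SRSF6, RBM39, RBM23, U2AF2 and PTBP1 lie below the DMSO points in every line at 6 h, and HNRNPA2B1 and SF3B3 lie below theirs in every line at 14 days.

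After 6 h of pracinostat, 29 of the 43 members were lower than in DMSO and 0 were higher, against 40.1% of all 13177 genes tested that were called, 21.2% higher and 18.9% lower. The roles differed in their counts: 8 of 10 SR proteins (all but SRSF3 and SRSF11), 11 of 15 hnRNPs, 4 of 5 splice site factors (all but U2AF1), all 3 CLK kinases and 3 of 6 U1 and U2 subunits fell, and no U5 or TRA2 member did. After 6 h of vorinostat, 28 members were lower and 1, TRA2A, was higher, against 43.9% of all genes called, 23.1% higher and 20.9% lower. With it 7 of 10 SR proteins, 12 of 15 hnRNPs, U2AF2, SF1, RBM23 and RBM39 of the splice site factors, all 3 CLK kinases and 2 of 6 U1 and U2 subunits fell. Both comparisons use the same 6 DMSO libraries and are therefore not independent. The median over members was -0.45 with pracinostat and -0.47 with vorinostat, against 0.03 and 0.02 over all genes. Of the 0 higher with pracinostat, TRA2A had an unadjusted p under 0.05, and DESeq2 and limma called 0. With library totals the median over all genes with pracinostat was 0.13, the split over all genes was 3556 higher and 1929 lower against 2794 and 2495, and 2 members (HNRNPC and TRA2A) were higher and 27 lower.

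Among the splice site factors, U2AF2, RBM23 and RBM39 fell by more than 1 log2 unit with both drugs. U2AF2 (chr19:55654146-55674715, plus strand), the large U2AF subunit that reads the polypyrimidine tract, lay between 96.8 and 139 CPM (median 129.9) with pracinostat and had 117, 142, 119.7, 108 and 118 CPM with vorinostat, against 272 to 408 CPM (median 326) in DMSO. No treated library of either drug came near the lowest DMSO library. U2AF2 changed by -1.44 ± 0.11 (SE; edgeR adjusted p = 6.71e-07) with pracinostat and -1.40 ± 0.11 (SE; edgeR adjusted p = 6.04e-07) with vorinostat. RBM23 (chr14:22893206-22919184, minus strand) is a close relative of RBM39, a U2AF-related factor that is degraded by aryl sulfonamide drugs. RBM23 lay between 25.6 and 67.1 CPM (median 45.6) with pracinostat and had 38.1, 26.4, 43.2, 35.2 and 41.8 CPM with vorinostat, against 68.2 to 137 CPM (median 117) in DMSO. PFEIFFER was the lowest line in all 3 groups, and drug and DMSO libraries did not overlap. RBM23 changed by -1.29 ± 0.10 (SE; edgeR adjusted p = 8.87e-07) and -1.51 ± 0.11 (SE; edgeR adjusted p = 2.69e-07) with pracinostat and vorinostat. RBM39 (chr20:35701347-35742312, minus strand) lay between 137 and 223 CPM (median 171) with pracinostat and had 154, 142, 131, 208 and 123 CPM with vorinostat, against 308 to 435 CPM (median 372) in DMSO. TOLEDO was highest in each group, and all treated libraries were below all DMSO libraries. RBM39 changed by -1.06 ± 0.09 (SE; edgeR adjusted p = 1.19e-06) with pracinostat and -1.27 ± 0.10 (SE; edgeR adjusted p = 4.95e-07) with vorinostat. SF1 fell less, by 0.46 ± 0.09 and 0.38 ± 0.10 on the log2 scale (edgeR adjusted p = 0.000865 and 0.00492). The uncertain U2AF1 lay between 0.16 and 6.83 CPM (median 2.89) with pracinostat and had 10.3, 5.09, 4.21, 0.14 and 7.10 CPM with vorinostat, against 0.22 to 11.1 CPM (median 3.36) in DMSO. OCILY1 stood highest and TOLEDO and SUDHL6 lowest, and the gene was called in none of the drug comparisons.

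Among SR proteins, SRSF6 (chr20:43457928-43464247, plus strand), which regulates alternative exons and its own poison exon, lay between 116 and 187 CPM (median 132) with pracinostat and had 122, 117, 105, 171 and 69.9 CPM with vorinostat, against 283 to 440.4 CPM (median 362) in DMSO. WSUDLCL2 with vorinostat was the lowest of all, and drug and DMSO libraries did not overlap. SRSF6 changed by -1.42 ± 0.14 (SE; edgeR adjusted p = 3.08e-06) with pracinostat and -1.67 ± 0.15 (SE; edgeR adjusted p = 1.15e-06) with vorinostat. SRSF4 was -0.92 ± 0.09 and -1.03 ± 0.09, SRSF7 -0.92 ± 0.12 and -0.93 ± 0.13, SRSF5 -0.81 ± 0.09 and -0.80 ± 0.10, and SRSF1 -0.61 ± 0.12 and -0.74 ± 0.13 (log2 fold change ± SE, pracinostat then vorinostat); all of these fell with both drugs. SRSF3 did not pass with either drug. It lay between 463 and 869.7 CPM (median 585) with pracinostat and had 506, 549, 630.0, 859 and 488 CPM with vorinostat, against 575 to 825 CPM (median 712) in DMSO. The highest treated values were WSUDLCL2 with pracinostat and TOLEDO with vorinostat. Log2 fold changes of SRSF3 were -0.23 ± 0.15 (SE; edgeR adjusted p = 0.249) and -0.21 ± 0.16 (SE; edgeR adjusted p = 0.318). SRSF2 fell with pracinostat (-0.45 ± 0.15, edgeR adjusted p = 0.0232), a call lost without OCILY1, PFEIFFER or SUDHL4, and was -0.33 ± 0.16 (SE; edgeR adjusted p = 0.105) with vorinostat.

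PTBP1 (chr19:797075-812327, plus strand), the pyrimidine tract binder that represses many neuronal and muscle exons, lay between 192 and 318 CPM (median 265) with pracinostat and had 249, 336, 246, 211 and 228 CPM with vorinostat, against 444 to 589 CPM (median 545) in DMSO. All treated libraries lay below all DMSO libraries, with log2 fold changes of -1.04 ± 0.12 (SE; edgeR adjusted p = 1.23e-05) and -1.09 ± 0.13 (SE; edgeR adjusted p = 1.19e-05). The other hnRNPs fell less: HNRNPH1 was -0.78 ± 0.11 and -0.65 ± 0.11, HNRNPAB -0.72 ± 0.11 and -0.63 ± 0.12, HNRNPL -0.65 ± 0.11 and -0.78 ± 0.12, HNRNPU -0.59 ± 0.12 and -0.79 ± 0.13, and HNRNPUL1 -0.58 ± 0.09 and -0.77 ± 0.10 with pracinostat and vorinostat. HNRNPA1 lay between 918 and 2501 CPM (median 1974) with pracinostat and had 975, 1951, 2717, 2544 and 1459 CPM with vorinostat, against 1452 to 2963 CPM (median 2159) in DMSO. Its lowest treated value was OCILY1 with both drugs, and it passed with vorinostat (-0.29 ± 0.10, edgeR adjusted p = 0.0311), a call lost without OCILY1, PFEIFFER or WSUDLCL2, but not with pracinostat (-0.25 ± 0.10, edgeR adjusted p = 0.0534). HNRNPA2B1, HNRNPC and HNRNPM passed with neither drug at 6 h.

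The CLK kinases, which release SR proteins from nuclear speckles, fell at 6 h. CLK1 lay between 27.5 and 74.4 CPM (median 53.2) with pracinostat and had 65.2, 66.7, 51.3, 48.0 and 25.1 CPM with vorinostat, against 44.7 to 153 CPM (median 69.0) in DMSO. Treated and DMSO libraries overlapped, with SUDHL6 highest and WSUDLCL2 lowest in DMSO, yet every line was lower with both drugs, with log2 fold changes of -0.66 ± 0.14 (SE; edgeR adjusted p = 0.00125) and -0.51 ± 0.15 (SE; edgeR adjusted p = 0.00997). CLK4 lay between 12.8 and 21.4 CPM (median 16.7) with pracinostat and had 15.1, 18.5, 14.7, 20.5 and 15.2 CPM with vorinostat, against 15.7 to 34.9 CPM (median 25.5) in DMSO. It was lower in every line as well, with -0.60 ± 0.14 (SE; edgeR adjusted p = 0.00247) and -0.52 ± 0.15 (SE; edgeR adjusted p = 0.00831). CLK2 was -0.33 ± 0.11 and -0.33 ± 0.11, calls that were lost without PFEIFFER or WSUDLCL2 and, with vorinostat, without SUDHL4. The vorinostat calls of CLK1 and CLK4 were lost without OCILY1. TRA2A, an SR-like protein that binds GAA-rich exons, lay between 139 and 210.1 CPM (median 157) with pracinostat and had 179, 140.3, 165, 212 and 173 CPM with vorinostat, against 87.7 to 199 CPM (median 151) in DMSO. All 5 lines were higher with vorinostat, though within the DMSO range except TOLEDO, with 0.36 ± 0.11 (SE; edgeR adjusted p = 0.0152), and the call was lost without SUDHL4 (0.35, edgeR adjusted p = 0.0504) or TOLEDO (0.31, edgeR adjusted p = 0.0656). SF3B1 lay between 189.5 and 555 CPM (median 379.8) with pracinostat and had 432, 398, 419, 183 and 258 CPM with vorinostat, against 252 to 592 CPM (median 372) in DMSO. Treated lines lay on both sides of their DMSO values, at -0.04 ± 0.10 (SE; edgeR adjusted p = 0.757) and -0.08 ± 0.11 (SE; edgeR adjusted p = 0.586).

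Over all 43 members, every line was lower in 30 with pracinostat and in 27 with vorinostat at 6 h, and groups did not overlap in 11 and 14. Over all 13177 genes tested, 15.2% and 19.2% were lower in every line, and 3.34% and 7.67% did not overlap. Leaving out each line gave 25 to 30 lower with pracinostat and 24 to 29 with vorinostat. Across all 4 drug comparisons, 14 members fell each time: SRSF1, SRSF4, HNRNPA3, HNRNPAB, HNRNPD, HNRNPF, HNRNPH1, HNRNPK, HNRNPL, HNRNPR, HNRNPUL1, U2AF2, RBM23 and SF3B3. Of these, only SRSF4, HNRNPD, HNRNPL and HNRNPR kept the call in all 4 without each line in turn. Over the 12967 genes tested at both times, 3.33% were called lower in all 4. The 6 h comparisons of both drugs share the DMSO libraries. SRSF11, SF3B4 and U2AF1 were called in none. With pracinostat, the 14 members lower at both times were 66.7% of the 21 lower at 14 days and 48.3% of the 29 lower at 6 h. Over all genes tested at both times, 3.73% were lower at both, which was 33.8% of those lower at 14 days and 19.5% of those lower at 6 h. With vorinostat, 21 were lower at both times, 70.0% of the 30 at 14 days and 75.0% of the 28 at 6 h. Over all genes tested at both times, these shares with vorinostat were 7.97%, 43% and 37.7%.

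Whether the drug effect differed between 14 days and 6 h was tested in 1 fit of all libraries, as the effect at 14 days minus that at 6 h. With pracinostat 11 of 43 members had a higher and 3 a lower value at 14 days, against 19.4% of all 15420 genes called, 9.53% higher and 9.83% lower. The share of members higher was above that of all genes, and the share lower was below it. With vorinostat 6 of 43 members were higher and 7 lower, against 23.4% of all genes, 11.2% higher and 12.2% lower. Both of these shares of members lay near those of all genes. Leaving out each line gave 7 to 9 higher and 1 to 3 lower with pracinostat (1 lower without PFEIFFER or SUDHL4, and 7 higher without OCILY1, SUDHL4 or TOLEDO) and 5 to 6 higher and 3 to 8 lower with vorinostat (4 lower without PFEIFFER or SUDHL4, 3 without TOLEDO). The higher ones with pracinostat were 4 splice site factors, 4 SR proteins, 2 CLK kinases and SNRNP70. For SRSF6 the log2 fold change with pracinostat was 0.16 ± 0.10 at 14 days against -1.42 ± 0.14 at 6 h, a difference of 1.56 ± 0.18 (SE; edgeR adjusted p = 4.47e-06). With vorinostat it was -0.31 ± 0.10 against -1.67 ± 0.15, a difference of 1.33 ± 0.18 (SE; edgeR adjusted p = 1.59e-05). The treated SRSF6 libraries lay between 133 and 382 CPM at 14 days with pracinostat and between 116 and 187 CPM at 6 h. DMSO averaged 213 (DMSOP) and 245 (DMSOV) CPM at 14 days against 367 CPM at 6 h; this difference between solvent groups was not tested. SRSF5, another SR protein, was 0.32 ± 0.14 against -0.81 ± 0.09 with pracinostat and differed by 1.11 ± 0.16 (SE; edgeR adjusted p = 4.13e-05). It had 315, 307, 282, 171 and 341 CPM after 14 days of pracinostat, against 302, 223, 196, 162 and 262 CPM in DMSOP, higher in all 5 lines though overlapping.

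U2AF2 differed between the times by 1.09 ± 0.15 (SE; edgeR adjusted p = 4.33e-05) with pracinostat and 0.82 ± 0.16 (SE; edgeR adjusted p = 0.000552) with vorinostat. It had 208, 186, 186, 164 and 195 CPM with pracinostat at 14 days, against 232, 233, 257, 274 and 206 CPM in DMSOP, still lower in every line. Its mean with pracinostat was 121 CPM at 6 h and 188 CPM at 14 days, and in DMSO 329 CPM at 6 h and 240.5 CPM (DMSOP) at 14 days. RBM39 differed by 0.95 ± 0.16 (SE; edgeR adjusted p = 0.000166) and 1.00 ± 0.16 (SE; edgeR adjusted p = 8.66e-05). At 14 days it had 284, 285, 209, 398 and 276 CPM with pracinostat, against 318, 244, 285, 399.9 and 306 CPM in DMSOP, which overlap and did not pass. RBM23 differed by 0.83 ± 0.13 (SE; edgeR adjusted p = 0.000149) and 0.82 ± 0.14 (SE; edgeR adjusted p = 0.000152). It had 67.0, 50.1, 75.5, 67.7 and 76.7 CPM with pracinostat at 14 days, against 98.8, 72.3, 93.6, 104 and 91.8 CPM in DMSOP. At 14 days U2AF2 (-0.33 ± 0.11 with pracinostat) and RBM23 (-0.43 ± 0.10) were still called lower. The U2AF2 call was lost without OCILY1, PFEIFFER, SUDHL4 or TOLEDO, and the RBM23 call without PFEIFFER. CLK1 and CLK4 differed with pracinostat by 0.72 ± 0.22 (SE; edgeR adjusted p = 0.0225) and 0.77 ± 0.21 (SE; edgeR adjusted p = 0.0108). CLK1 had 89.4, 47.2, 49.3, 43.9 and 42.9 CPM with pracinostat at 14 days, against 90.8, 39.3, 48.8, 41.5 and 41.1 CPM in DMSOP. CLK4 had 21.8, 24.0, 21.2, 24.7 and 25.3 CPM, against 21.4, 22.0, 15.0, 20.4 and 24.5 CPM in DMSOP, with log2 fold changes of 0.09 ± 0.17 and 0.20 ± 0.17, neither of them called. Mean CLK1 with pracinostat was 52.57 CPM at 6 h and 54.55 CPM at 14 days, and in DMSO 85.56 CPM and 52.31 CPM (DMSOP). For CLK4 these means were 16.9 and 23.4 CPM, and 25.67 and 20.67 CPM. SUDHL6 entered the 6 h means only, and the differences between solvent groups were not tested.

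HNRNPC and HNRNPA2B1 went the other way. HNRNPC, a core hnRNP that keeps cryptic exons out, had 574, 562, 511, 603 and 631 CPM after 14 days of pracinostat, against 856, 850.0, 945, 939.7 and 852 CPM in DMSOP. It had 605, 571, 433, 561 and 755 CPM after 14 days of vorinostat, against 849.6, 868, 1082, 1004 and 997 CPM in DMSOV. At 6 h it lay between 825 and 1263 CPM (median 1062) with pracinostat and had 809.9, 910.1, 932, 1270 and 771 CPM with vorinostat, against 842 to 1005 CPM (median 868) in DMSO. The groups did not overlap at 14 days and did at 6 h. The drug effect differed by -0.87 ± 0.17 (SE; edgeR adjusted p = 0.000737) with pracinostat and -0.79 ± 0.17 (SE; edgeR adjusted p = 0.00155) with vorinostat. HNRNPA2B1 differed by -0.70 ± 0.21 (SE; edgeR adjusted p = 0.0188) and -1.01 ± 0.22 (SE; edgeR adjusted p = 0.00134). At 6 h it lay between 1275 and 1858 CPM (median 1589) with pracinostat and had 1686, 1645, 1683, 1593 and 1484 CPM with vorinostat, against 1202 to 2098 CPM (median 1762) in DMSO, which overlap. TRA2A differed by -0.50 ± 0.15 (SE; edgeR adjusted p = 0.0175) and -0.49 ± 0.15 (SE; edgeR adjusted p = 0.0188), with -0.25 ± 0.11 and -0.10 ± 0.11 at 14 days. With vorinostat SNRNP200 (-0.69 ± 0.19, edgeR adjusted p = 0.00808), SF3B3 (-0.54 ± 0.17, edgeR adjusted p = 0.0219), PRPF8 (-0.54 ± 0.19, edgeR adjusted p = 0.039) and SF3B2 (-0.43 ± 0.15, edgeR adjusted p = 0.0433) were also lower at 14 days than at 6 h relative to DMSO. With library totals 7 members were higher and 5 lower with pracinostat, and 13 were lower with vorinostat. Over all genes that split was 1028 higher and 2316 lower with pracinostat, against 1470 and 1516. It was 1256 higher and 2573 lower with vorinostat, against 1722 and 1883.

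**Figure D3:**
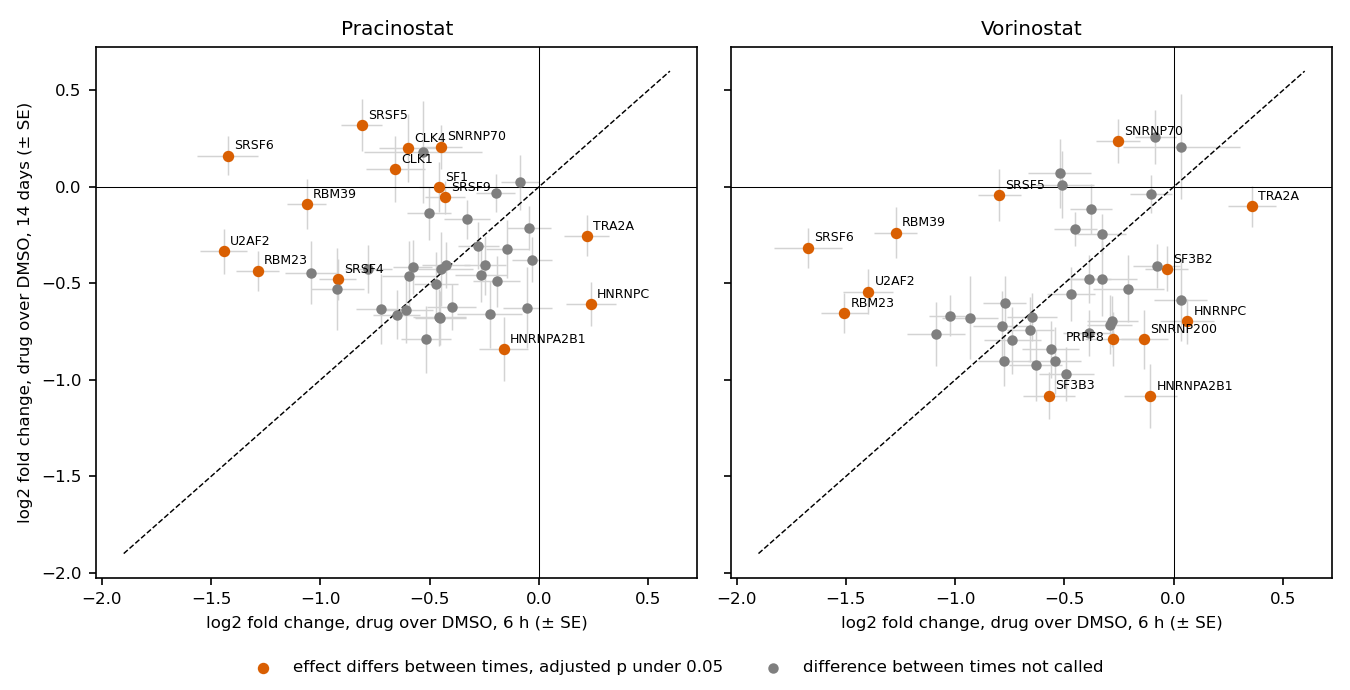
Log2 fold change over DMSO at 14 days (vertical) against that at 6 h (horizontal) for the 43 members, pracinostat on the left and vorinostat on the right, with standard errors; the dashed line marks equal values, and orange points are those whose effects differed between times at an adjusted p under 0.05. SRSF6, RBM39, U2AF2 and RBM23 lie far above the line with both drugs, and HNRNPC and HNRNPA2B1 lie below it.

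The drugs were compared directly over the 43 members at each time; both are hydroxamic acids, and since their doses are not given here, values at equal times may be at unequal doses. At 14 days no member passed, and 0 of all 14037 genes did (0%); DESeq2 and limma also called 0, and 4 members had an unadjusted p under 0.05. These 4 had a less negative or more positive effect of pracinostat. The pracinostat effect minus the vorinostat effect was 0.48 ± 0.15 for SRSF6 (95% interval 0.17 to 0.79), 0.46 ± 0.17 for SF3B3 (0.10 to 0.82), 0.47 ± 0.22 for SNRNP200 (0.01 to 0.92) and 0.42 ± 0.20 for SF3A1 (0.0013 to 0.83), each with an adjusted p of 1 by edgeR. For HNRNPA2B1 it was 0.24 ± 0.23 (95% interval -0.25 to 0.74). In 8 of 43 members this interval lay within 0.5 log2 units of 0, so for the others a difference of that size was not excluded. At 6 h pracinostat minus vorinostat gave 0 calls among the members, against 0.0152% of all genes (0.00759% higher and 0.00759% lower), and 0 by DESeq2 and limma, with 1 member (RBM39) at an unadjusted p under 0.05. It was 0.21 ± 0.10 for RBM39 (95% interval 0.0016 to 0.41; edgeR adjusted p = 0.539), 0.25 ± 0.15 for SRSF6 (-0.07 to 0.57), 0.22 ± 0.11 for RBM23 (-0.01 to 0.45) and -0.05 ± 0.11 for U2AF2 (-0.28 to 0.19). At 6 h 41 of 43 intervals lay within 0.5 log2 units of 0. DMSOP and DMSOV differed in 0 members (0% of all genes called), with 0 at an unadjusted p under 0.05 and 0 by DESeq2 and limma.

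Lines differed in how far the members moved. After 14 days of vorinostat the median log2 fold change over members was -0.93 in TOLEDO, -0.85 in SUDHL4, -0.52 in PFEIFFER, -0.49 in WSUDLCL2 and -0.21 in OCILY1, and 18 members in TOLEDO and 18 in SUDHL4 were more than 1 log2 unit lower, against 5 in PFEIFFER, 2 in WSUDLCL2 and 0 in OCILY1. After 14 days of pracinostat the medians were -0.54 in TOLEDO, -0.52 in PFEIFFER, -0.51 in SUDHL4, -0.31 in WSUDLCL2 and -0.20 in OCILY1. At 6 h the order was another: with pracinostat the medians ran between -0.68 in OCILY1 and -0.24 in SUDHL4, and with vorinostat between -0.64 in WSUDLCL2 and OCILY1 and -0.20 in PFEIFFER. Each line has 1 library per group, so these per-line values have no replicate check.

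Genes of the G2/M phase were lower at 14 days: all 10 of 10 listed (MKI67, TOP2A, CCNB1, CDK1, BUB1, KIF20A, PLK1, AURKA, CENPF and TPX2) with pracinostat and all 10 with vorinostat, while 0 and 1 were lower at 6 h. Their summed level lay between 709 and 2794 CPM with pracinostat against 2742 to 5374 CPM in DMSOP, and between 239 and 1679 CPM with vorinostat against 2793 to 5959 CPM in DMSOV. By line, the log2 ratio of this sum with vorinostat at 14 days was -3.96 in SUDHL4, -2.89 in TOLEDO, -2.18 in PFEIFFER, -1.09 in WSUDLCL2 and -1.02 in OCILY1. With pracinostat at 14 days it was -2.29 in SUDHL4, -1.64 in PFEIFFER, -1.515 in WSUDLCL2, -1.20 in OCILY1 and -0.94 in TOLEDO. With vorinostat, SUDHL4 and TOLEDO had the largest falls of this sum and of the member median (-0.85 and -0.93), and OCILY1 had the smallest of both (-0.21). With pracinostat, TOLEDO had the smallest fall of this sum. Its median fall of the members (-0.54) was the largest, close to PFEIFFER (-0.52) and SUDHL4 (-0.51). Whether the sum and the members moved together over lines was not tested. Of 13 mitochondrially encoded transcripts, 12 were higher with pracinostat and 8 with vorinostat at 14 days, where their sum reached 90930 to 130100 CPM and 86910 to 159900 CPM, against 53220 to 89680 CPM in DMSOP and 56400 to 95060 CPM in DMSOV. At 6 h 9 were lower with pracinostat and 0 with vorinostat. Of the 5 B-cell markers, 2 were higher with each drug at 14 days and 4 were lower with each at 6 h. Of 5 myeloid markers, 3 were in the table and all 3 were higher at 14 days, with a summed median of 13.9 and 15.9 CPM with pracinostat and vorinostat against 0.231 and 0.660 CPM in DMSOP and DMSOV. None of the 4 erythroid markers was in the table. Of 4 fibroblast markers 3 were in the table, with summed medians of 19.5 and 18.0 CPM with pracinostat and vorinostat at 14 days, against 11.0 and 11.2 CPM in DMSOP and DMSOV, and of 11.2 and 11.5 CPM at 6 h, against 4.54 CPM in DMSO. On the log2 scale, PDGFRB was higher by 2.64 ± 0.52 and 1.55 ± 0.52 with pracinostat and vorinostat at 14 days and by 2.24 ± 0.60 with pracinostat at 6 h, and COL1A1 by 2.00 ± 0.41 and 1.29 ± 0.43 at 6 h. The 1 endothelial marker in the table, PECAM1, was higher by 2.56 ± 0.87 log2 units with pracinostat at 14 days. TRAC, the 1 T-cell marker tested at 14 days, was higher there by 1.32 ± 0.38 log2 units with pracinostat. No epithelial marker was called. Summed T-cell markers (3 in the table) reached 99.9 CPM and epithelial markers (3) 282 CPM at most, in single lines, with group medians of at most 17.0 and 0.448 CPM. The part of these genes in the results above was not tested.

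**Figure D4:**
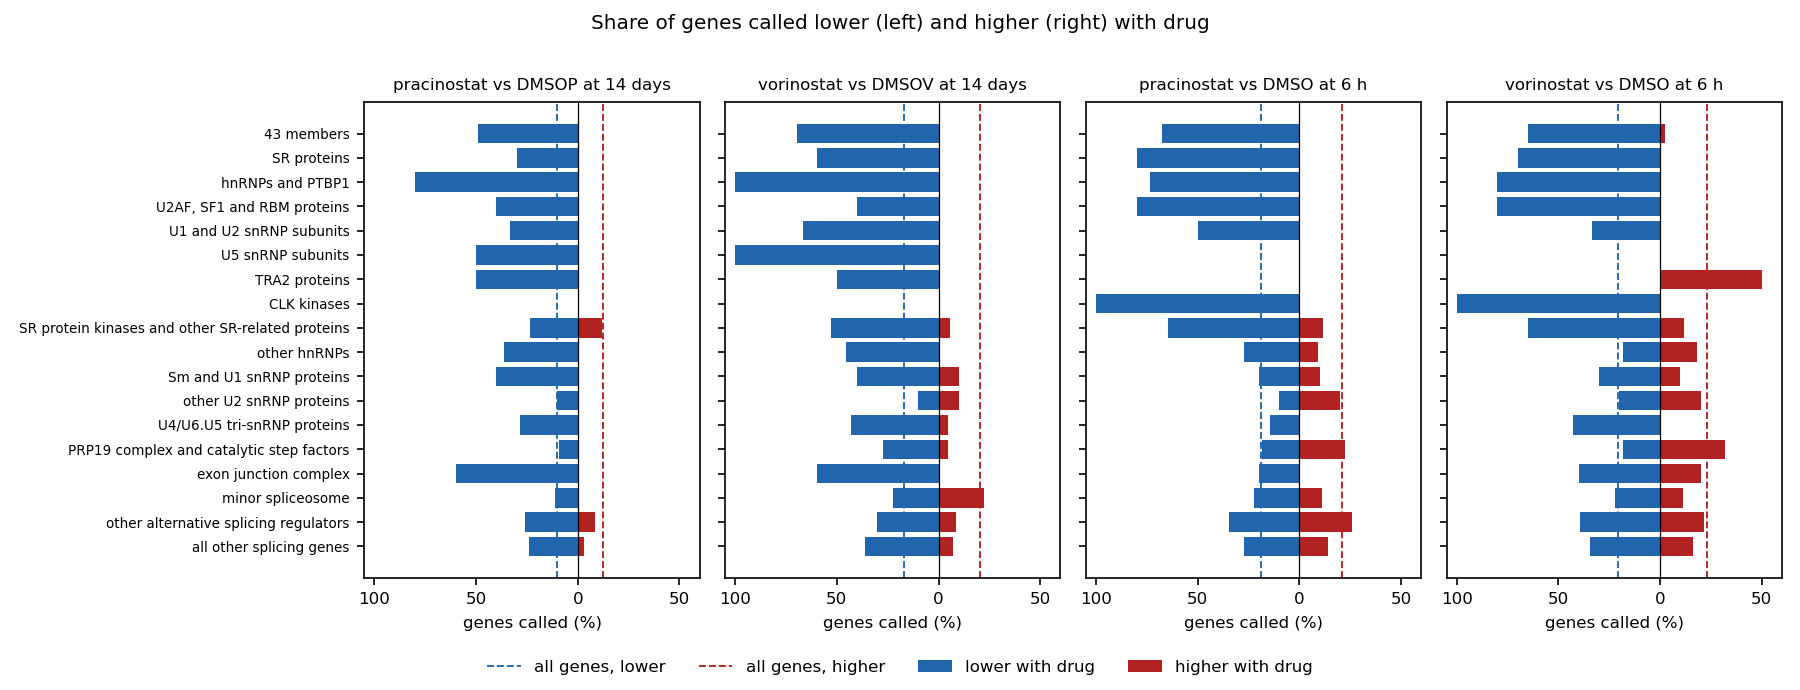
Share of genes called lower (bars to the left, blue) and higher (bars to the right, red) with drug, in percent of the genes tested, for the 43 members, their roles and the lists of other splicing genes; dashed lines mark the shares over all genes tested. The bars of the members extend left to 48.8% and 69.8% at 14 days and to 67.4% and 65.1% at 6 h.

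The wider splicing machinery was read from a further list of 138 genes, of which 132 were in the table and 128 were tested. With pracinostat and vorinostat, 4 and 9 of them were higher and 31 and 46 lower at 14 days, and 18 and 21 were higher and 35 and 44 lower at 6 h. The shares lower were 24.2% and 35.9% at 14 days and 27.3% and 34.4% at 6 h, against 10.2% and 17.2%, and 18.9% and 20.9%, of all genes. At 14 days 3.12% and 7.03% were higher, against 12.3% and 20.4% of all genes. At 6 h 14.1% and 16.4% were higher, against 21.2% and 23.1%. Medians were -0.22 and -0.21 at 14 days and -0.10 and -0.13 at 6 h. The SR protein kinases and SR-related proteins were the list with the largest share lower at 6 h, 11 of 17 with each drug (64.7%), with 2 higher. In it LUC7L2, a U1-associated factor, fell by 1.31 ± 0.13 and 1.43 ± 0.14 on the log2 scale with pracinostat and vorinostat, SRRM2, a scaffold of nuclear speckles, was -1.33 ± 0.17 with pracinostat, and SREK1 was -1.39 ± 0.13 with vorinostat. SRPK2, a cytoplasmic SR protein kinase, rose by 0.74 ± 0.15 and 0.82 ± 0.16, whereas SRPK1 was lower at 14 days by 0.62 ± 0.14 and 0.90 ± 0.14. PUF60, a U2AF2-related factor, fell by 0.96 ± 0.09 and 1.00 ± 0.10 at 6 h.

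Of 11 other hnRNPs, 4 and 5 were lower at 14 days (36.4% and 45.5%) and 3 and 2 at 6 h (27.3% and 18.2%), beside the shares of all genes given above. SYNCRIP was lower in all 4 comparisons, -0.66 ± 0.19 and -1.01 ± 0.19 at 14 days and -0.93 ± 0.13 and -0.98 ± 0.14 at 6 h with pracinostat and vorinostat. HNRNPH3 was -0.77 ± 0.17 and -1.03 ± 0.17 at 14 days, and HNRNPLL, which silences CD45 exons in activated lymphocytes, rose by 1.70 ± 0.31 and 1.43 ± 0.31 at 6 h. Among 23 tested regulators of alternative splicing, 6 and 7 were lower and 2 and 2 higher at 14 days. At 6 h 8 and 9 were lower and 6 and 5 higher. The shares lower were 26.1% and 30.4% at 14 days and 34.8% and 39.1% at 6 h. NOVA2, an RNA binder of neurons, was 3.28 ± 0.39 and 3.57 ± 0.42 at 14 days and 4.27 ± 0.51 and 4.10 ± 0.52 at 6 h, and MBNL2 rose by 0.93 ± 0.18 and 1.23 ± 0.20 at 6 h. RBM5 was -0.85 ± 0.10 and -0.66 ± 0.10 at 6 h, and RBMX was -0.59 ± 0.15 and -0.94 ± 0.15 at 14 days. Of 10 other U2 snRNP proteins, 1 and 1 were lower and 0 and 1 higher at 14 days, and 1 and 2 lower and 2 and 2 higher at 6 h. The shares lower were 10% and 10% at 14 days and 10% and 20% at 6 h, against 10.2%, 17.2%, 18.9% and 20.9% of all genes. SNRPA1 was -0.98 ± 0.15 and -1.21 ± 0.15 at 14 days. SF3B5 was 1.01 ± 0.18 with vorinostat at 14 days, and it rose by 0.45 ± 0.11 and 0.42 ± 0.11 at 6 h. Of 21 tri-snRNP proteins, 6 and 9 were lower at 14 days and 3 and 9 at 6 h, and 1 was higher in any of these, CD2BP2 with vorinostat at 14 days (0.39 ± 0.11). The shares lower were 28.6% and 42.9% at 14 days and 14.3% and 42.9% at 6 h. Of 22 factors of the PRP19 complex and the catalytic steps, 5 and 7 were higher and 4 and 4 lower at 6 h. These were 22.7% and 31.8% higher, against 21.2% and 23.1% of all genes, and 18.2% and 18.2% lower, against 18.9% and 20.9%. DHX16, a helicase that activates the spliceosome, rose by 0.68 ± 0.10 and 0.80 ± 0.11.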

How the data were processed

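RNA of 37 libraries from 6 lymphoma lines was read from 2 deposited tables. Per the labels, RNA was extracted with Trizol and libraries were made with an Illumina TruSeq RNA kit. Per the submitters' processing notes, STAR and edgeR were used with hg38; versions, annotation release and strand setting are unknown here (not given). The authors deposited whole-number counts per gene, used for every main test, and log2 CPM values, used only in an alternative; each log2 CPM column matched its own count library best (37 of 37). Genes were matched by Ensembl identifier to GENCODE 29 (17859 of 18011).

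Genes passed filterByExpr (minimum count 10, minimum total 15). Each time was fitted with edgeR 4.0.16 (R 4.3.3; TMM, robust quasi-likelihood), cell line as block; for the difference between times, 1 fit held all libraries and each line at each time was its own block. Benjamini-Hochberg adjustment ran over all genes tested, with a threshold of 0.05. Libraries of the same line shared their deviations (r of 0.76 to 0.927 at 6 h and 0.54 to 0.965 at 14 days; at most 0.188 and 0.226 between lines), which, with the line names in the labels, is where the pairing comes from. Alternatives were RLE factors, library totals, no filter, DESeq2 1.42.0, limma 3.58.1, no block, each line left out, only the groups compared, and the mean of both DMSO groups as control. The scripts were tested on simulated data.

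Depth was 3.19 to 8.92 M counts (M, 1e6); floors of 3 counts cover counting error only. Values are given per line, or at 6 h as lowest, median and highest, for the 5 called members with the largest fall or rise per drug comparison, 4 for other comparisons, and for CLK1, CLK4, SRSF3, HNRNPA1, U2AF1, RBM23 and SF3B1; further members were chosen after their values were seen. Members and lists were chosen with earlier results of these data known. A further SUDHL4 vorinostat sample at 14 days has no count column of its own and was not used here. A gene of the B-cell marker list is not reported here.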

Additional observations from a re-analysis of the deposited data

Results flagged for a closer look

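In 12 of 172 sets of lines, a member in a drug comparison, 1 line stood apart by Dixon's criterion, which chance alone would flag in about 5% of sets. After 14 days of pracinostat the log2 fold change of SRSF10 was lowest in SUDHL4 (-0.5448) and that of CLK2 lowest in PFEIFFER (-0.5198), while PRPF8 was highest in WSUDLCL2 (-0.1007) and PTBP1 highest in OCILY1 (-0.1908). After 14 days of vorinostat U2AF1, which cannot be told apart from its copy, was lowest in WSUDLCL2 (-0.6385), RBM23 was lowest in TOLEDO (-1.102) and U2AF2 was highest in OCILY1 (-0.1271). After 6 h of pracinostat HNRNPA1 was lowest in OCILY1 (-0.6605) and SF3A1 highest in SUDHL4 (-0.2504). After 6 h of vorinostat PFEIFFER was the highest line for HNRNPK (0.1641), SF3B3 (-0.05312) and PRPF8 (0.1736).

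The drug effect at 14 days minus that at 6 h passed the interaction test of edgeR in 27 cases, with 43 members tested for each drug. Over all 15420 genes tested, 19.4% passed with pracinostat and 23.4% with vorinostat. With pracinostat these log2 differences were SRSF6 1.5636, SRSF5 1.1074, U2AF2 1.0853, RBM39 0.9489, RBM23 0.8299, CLK4 0.7746, CLK1 0.7244, SNRNP70 0.6315, SF1 0.4332, SRSF4 0.4206, SRSF9 0.3534, TRA2A -0.4968, HNRNPA2B1 -0.7028 and HNRNPC -0.8706. With vorinostat they were SRSF6 1.3262, RBM39 1.0021, U2AF2 0.8227, RBM23 0.8197, SRSF5 0.719, SNRNP70 0.4607, SF3B2 -0.4252, TRA2A -0.492, PRPF8 -0.5435, SF3B3 -0.5448, SNRNP200 -0.6894, HNRNPC -0.7914 and HNRNPA2B1 -1.0096. The 6 h effects of both drugs share their DMSO libraries.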

How the results depend on the processing

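No member's called value changed sign under any alternative run. Without the cell line as block (no replicate block, so without the pairing by line), 0 members were lower with pracinostat and 12 with vorinostat at 14 days, 14 with pracinostat and 16 with vorinostat at 6 h, where 0 were higher with vorinostat; the difference between times gave 1 higher and 1 lower with pracinostat and 2 higher and 1 lower with vorinostat. Over all genes without the block, 2 of 14037 were lower with pracinostat and 438 with vorinostat at 14 days. At 6 h 366 of 13177 were lower with pracinostat, and 648 were lower and 458 higher with vorinostat. The difference between times then gave 24 higher and 51 lower of 15420 genes with pracinostat, and 83 higher and 169 lower with vorinostat. The cause of the smaller counts without the block was not tested. With library totals, 2 members were higher with pracinostat at 6 h (HNRNPC and TRA2A), and the difference between times gave 7 higher and 5 lower with pracinostat and 13 lower with vorinostat. DESeq2 called 1 member higher with pracinostat at 14 days (SRSF5), and the mean of both DMSO groups as control gave 1 higher with vorinostat at 14 days (SNRNP70). With only the groups compared in the fit, 22 members were lower with pracinostat and 21 with vorinostat at 14 days, and 27 and 26 at 6 h. Over all genes, 1302 of 12059 were then lower with vorinostat at 14 days, against 2410 of 14037. Leaving out each line gave 8 to 18 members lower with pracinostat and 24 to 31 with vorinostat at 14 days, 25 to 30 with pracinostat and 24 to 29 with vorinostat at 6 h, and 0 to 1 higher with vorinostat at 6 h. For the difference between times it gave 7 to 9 higher and 1 to 3 lower with pracinostat and 5 to 6 higher and 3 to 8 lower with vorinostat; fewer lines enter each of these fits. Over all genes, leaving out each line gave 591 to 1231 lower with pracinostat at 14 days, against 1434 with all lines. Under every alternative that kept the block, 8 of the 21 calls with pracinostat and 21 of the 30 with vorinostat at 14 days remained, and at 6 h 24 of the 29 with pracinostat and 23 of the 29 with vorinostat. Counts of U2AF1, CLK4 and CLK1 are the lowest, so depth limits these members first.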

Other observations

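In DMSO the cell lines themselves differed in some of these genes, which the drug comparisons set aside by their block. The mean level of CLK1 on the log2 CPM scale was 7.26 in SUDHL6 and 5.21 in WSUDLCL2, a range of 2.05 over the 6 lines, and that of CLK2 was 7.28 in TOLEDO and 5.88 in PFEIFFER. SF3B4, a subunit of the SF3B complex, was 7.76 in TOLEDO and 6.18 in SUDHL4. TOLEDO was also the highest line for HNRNPD, at 9.83 against 8.39 in SUDHL6, and for HNRNPU, at 10.11 against 8.72 in SUDHL4. HNRNPC varied least, with a range of 0.198 between TOLEDO and OCILY1. The uncertain U2AF1 had the widest range, 4.15, with OCILY1 highest and SUDHL6 lowest. SUDHL6 has a single DMSO library, at 6 h, while the other lines have DMSO libraries at both times, so these differences were not tested.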
